A study of Homo sapiens with 4 samples.

Results

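The human mitochondrial genome carries its own small set of genes, and 37 of the 32955 genes in the deposited expression table are assigned to chromosome MT there. All 37 were taken as members, with no use of their measured values. They comprise 13 protein-coding genes (MT-ND, MT-CO, MT-CYB and MT-ATP), 2 ribosomal RNA genes (MT-RNR) and 22 transfer RNA genes (MT-T), of which 28 lie on the plus strand and 9 on the minus strand. Coordinates are those of the table (hg38, chromosome MT), and all 37 were identical in the GENCODE 29 annotation of GRCh38.

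Mitochondrial DNA is transcribed by POLRMT from a promoter on each strand into long precursors that cover nearly the whole circle. Transfer RNAs punctuate these precursors, and their excision by RNase P and ELAC2 releases the mRNAs and rRNAs between them. The heavy-strand promoter gives the genes annotated on the plus strand, that is both rRNAs, most mRNAs and most tRNAs, while the light-strand promoter gives MT-ND6 and the remaining tRNAs. The mRNAs encode subunits of respiratory complexes I, III, IV and of ATP synthase (complex V), and the tRNAs and rRNAs serve only to translate them.

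The study sequenced 4 RNA libraries of MDA-MB-231, a cell line derived from human breast cancer. Cells received either mimic NC, which served as the negative control (n = 2), or miR-217 mimic, a synthetic stand-in for the microRNA miR-217 (n = 2). The cells carried no other treatment or genetic change named in the labels, and the libraries of each group are numbered 1 and 2, without a statement of what a shared number marks or of whether replicates were separate cultures. Total RNA was isolated with TRIzol and made into libraries with a stranded mRNA kit. Expression is given as RPKM, in which the read count of a gene is scaled by gene length and by the total over all listed genes.

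The recovered read totals were 32635814 to 57933183 per library, the smallest being miR-217 mimic replicate 2. All members had between 214 and 432964 reads in every library. The 5 genes taken as high in MDA-MB-231 (VIM, CD44, AXL, CAV1, MSN) were at 5.17 to 157 RPKM, and ESR1, GATA3 and CDH1 at 0.433 RPKM or less. CDKN2A, a gene that this line is usually said to lack, had 10.5 to 13.2 RPKM, so the identity of the cells rests on the labels. Markers of blood and stroma (PTPRC, CD3E, HBB, COL1A1, PECAM1) summed to 1.80 and 1.10 RPKM in the mimic NC libraries and to 1.94 and 2.62 in those of miR-217 mimic. PTPRC and CD3E were highest in miR-217 mimic replicate 2, at 1.25 and 0.733 RPKM, and HBB was at 0 in the libraries numbered 2.

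The sequences behind the main results are the tRNAs, given here 5′ to 3′ as GENCODE 29 has them, with the anticodon in capitals. The first block lies between MT-ND2 and MT-CO1, where tryptophan tRNA on the plus strand is followed by 4 tRNAs on the minus strand (alanine, asparagine, cysteine, tyrosine), among them MT-TC and MT-TY, which had the highest RPKM of all members in every library. It is shown because of the contrast in level between these neighbours:
MT-TW: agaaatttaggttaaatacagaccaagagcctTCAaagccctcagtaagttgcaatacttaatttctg
MT-TA: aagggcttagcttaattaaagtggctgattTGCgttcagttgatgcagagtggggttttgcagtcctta
MT-TN: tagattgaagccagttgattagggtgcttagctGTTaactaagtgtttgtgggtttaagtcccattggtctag
MT-TC: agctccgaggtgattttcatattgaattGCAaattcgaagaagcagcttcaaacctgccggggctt
MT-TY: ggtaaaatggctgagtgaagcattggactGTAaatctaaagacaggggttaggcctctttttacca

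The second block holds the tRNAs for glycine, arginine, histidine, serine, leucine and threonine on the plus strand after MT-CO3. Their levels were among those that differed most between the libraries numbered 2 and those numbered 1:
MT-TG: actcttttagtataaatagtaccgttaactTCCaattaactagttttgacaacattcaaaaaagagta
MT-TR: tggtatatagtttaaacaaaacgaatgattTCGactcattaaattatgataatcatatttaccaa
MT-TH: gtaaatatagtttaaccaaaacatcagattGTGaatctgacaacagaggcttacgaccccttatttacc
MT-TS2: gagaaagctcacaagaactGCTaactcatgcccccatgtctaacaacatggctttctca
MT-TL2: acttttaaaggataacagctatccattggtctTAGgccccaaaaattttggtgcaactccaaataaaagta
MT-TT: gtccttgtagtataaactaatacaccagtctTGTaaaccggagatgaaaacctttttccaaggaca

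MT-TH, MT-TS2 and MT-TL2 follow each other without a gap (bases 12138 to 12206, 12207 to 12265 and 12266 to 12336) between MT-ND4 and MT-ND5. MT-TS2, at 59 bases, is the shortest of the 22 tRNA genes, whose median length is 69 bases. Reads on an interval this short do not show whether they came from the mature tRNA or from a precursor that runs across it, and the library kit was one for mRNA.

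Both rRNAs were detected, at very different RPKM. MT-RNR2, the large-subunit rRNA (bases 1671 to 3229), was at 4794 and 4650 RPKM in mimic NC 1 and 2 and at 4713 and 4945 in miR-217 mimic 1 and 2. MT-RNR1, the small-subunit rRNA just before it (bases 648 to 1601), was at 233, 217.2, 241 and 249 RPKM in the same order. MT-RNR2 thus exceeded MT-RNR1 by 19.6 to 21.4 times per length, a narrow range over the 4 libraries for a pair cut from the same precursor. The library kit was one for mRNA, so this ratio need not be that of the rRNAs in the cells.

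Among the protein-coding genes, RPKM differed several-fold. MT-ND4L, a complex I subunit, was the highest at a mean of 3938 ± 115 RPKM (SD, n = 2) with mimic NC, and MT-ND4, whose frame it overlaps by 7 bases, was at 3263 ± 383. The complex IV subunits MT-CO1 and MT-CO3, at 3156 ± 18.2 and 2993 ± 305, lay in the same range as MT-ND4 and did not differ from it beyond the spread. MT-CO2, also of complex IV, was at 2055 ± 329, and the complex V subunit MT-ATP6 at 2651 ± 247. The lowest were MT-CYB, the single complex III subunit of this genome, at 579 ± 109, and MT-ATP8, a small complex V subunit, at 530 ± 152, whose intervals overlap. MT-ATP8 shares 46 bases with MT-ATP6 on the same mRNA, and reads in that stretch can be assigned to either. The RPKM of genes whose frames overlap, as also MT-ND4L and MT-ND4, are thus not levels of separate mRNAs.

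The tRNAs spread much more widely than the mRNAs. MT-TC was the highest of all members, at 9057 and 7888 RPKM in the mimic NC libraries and at 8371 and 8586 in the miR-217 mimic libraries, followed by MT-TY of the same minus-strand cluster at 6952 to 7939. The other genes of this cluster, MT-TN (4766 to 5671) and MT-TA (3848 to 4395), were also high. However, in miR-217 mimic replicate 2 both lay below MT-TG at 6478 RPKM, and MT-RNR2 exceeded MT-TA in every library. The plus-strand neighbour MT-TW was at 736, 1306, 587 and 718 RPKM, so that MT-TC exceeded it by 6.04 to 14.3 times in each library. The members with the lowest mean were MT-TM (methionine) at 59.0 to 169 RPKM, MT-TF (phenylalanine) at 117 to 148, MT-TE (glutamate) at 109 to 212 and MT-TQ (glutamine) at 97.1 to 334. Per length, MT-TC and MT-TY thus exceeded every mRNA in every library, and MT-TM, MT-TF, MT-TE and MT-TQ lay under every mRNA. Reads on such short intervals need not come from mature tRNA, so this is an order of RPKM and not of molecules. Whether the counting used strand is not given in the sources used here, and without it reads from a gene and from the opposite strand cannot be told apart, which touches every minus-strand member.

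**Figure D1:**
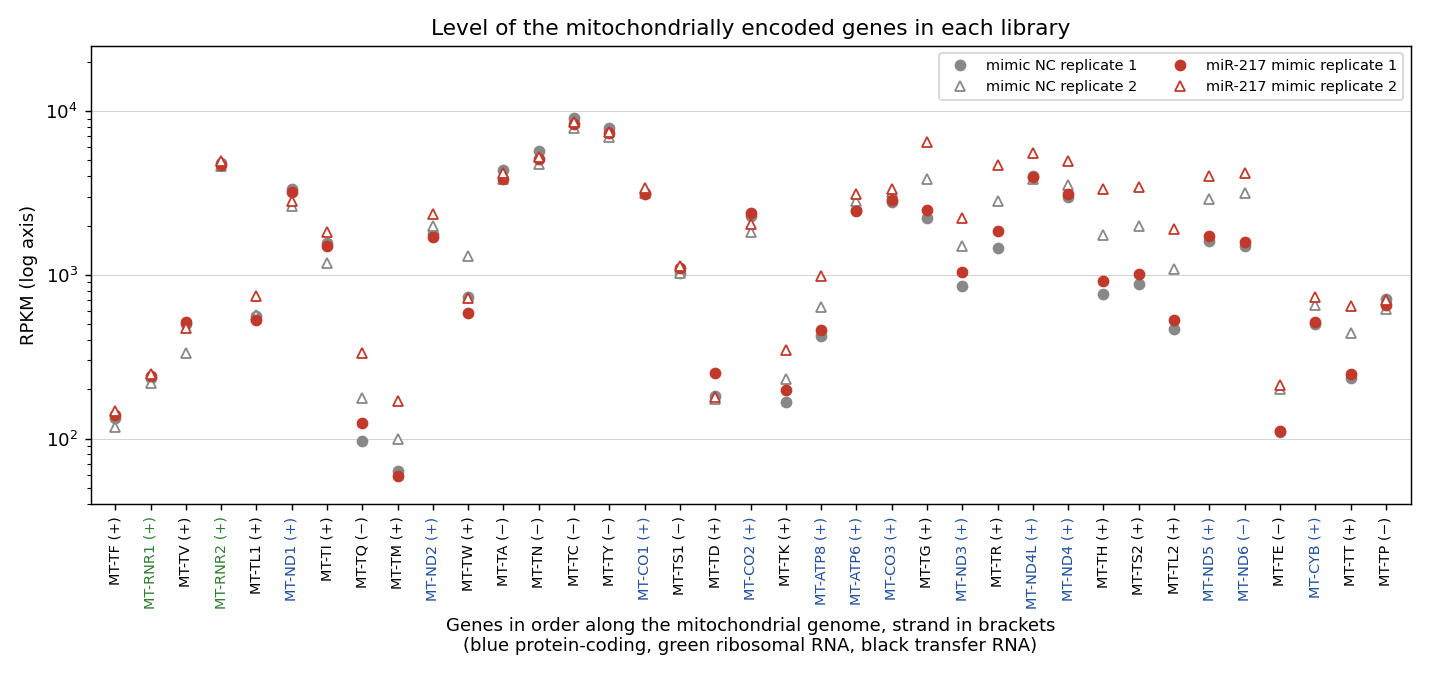
RPKM of each of the 37 members (log axis) in the order of the genes along the mitochondrial genome, with strand in brackets, circles for libraries numbered 1, triangles for libraries numbered 2, grey for mimic NC and red for miR-217 mimic. The libraries lie close together from MT-TA to MT-TS1, whereas from MT-TG to MT-TT the triangles mostly lie above the circles, as for MT-TH at 762 and 913 RPKM against 1758 and 3331.

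Reads on the 37 members made up 3.56% (95% Wilson interval 3.56 to 3.57) and 3.97% (3.97 to 3.98) of all reads in mimic NC 1 and 2, and 3.58% (3.58 to 3.59) and 4.78% (4.77 to 4.79) in miR-217 mimic 1 and 2. The group means were 3.77% ± 0.291 and 4.18% ± 0.845 (SD, n = 2), and the difference was smaller than the spread of the miR-217 mimic libraries, of which replicate 2 alone stood above the rest. These intervals cover counting error only. Reads on complex I genes took 1.44%, 1.80%, 1.47% and 2.38% of all reads in mimic NC 1 and 2 and miR-217 mimic 1 and 2. Reads on rRNAs took 0.770%, 0.746%, 0.758% and 0.795%, and tRNAs 0.264%, 0.280%, 0.254% and 0.358%. Most of the excess in miR-217 mimic replicate 2 thus sat in complex I genes, while the rRNA share was nearly level across libraries.

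**Figure D2:**
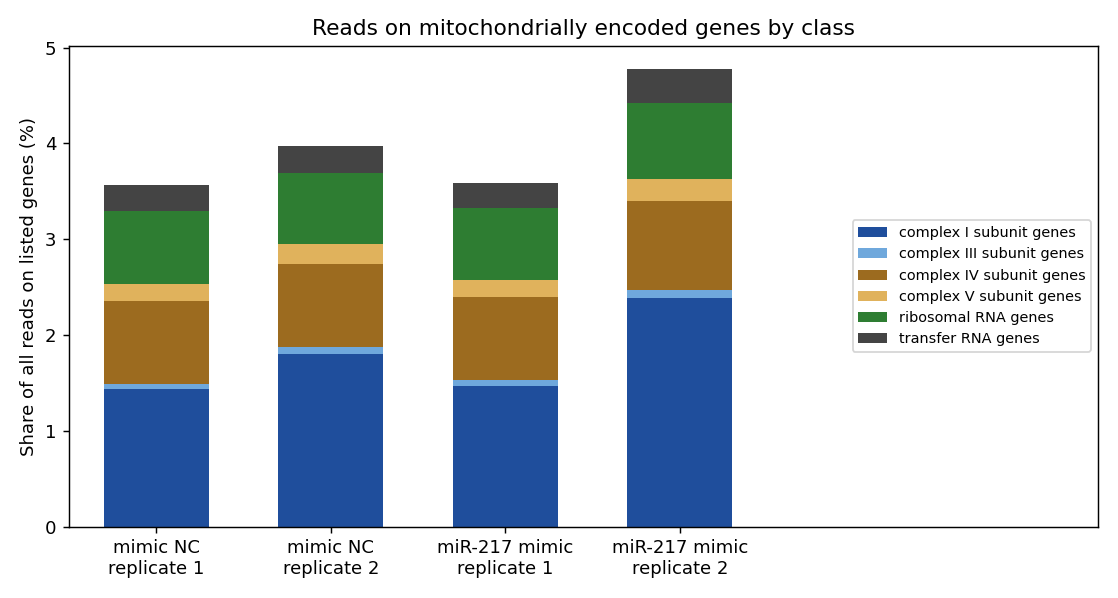
Share of all reads on listed genes, in percent, taken by mitochondrially encoded genes in each of the 4 libraries, stacked by respiratory complex, rRNA and tRNA. Stacks reach 3.56% and 3.97% in the mimic NC libraries and 3.58% and 4.78% in the miR-217 mimic libraries, with the complex I layer growing from 1.44% to 2.38% and the rRNA layer between 0.746% and 0.795%.

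The comparison of miR-217 mimic with mimic NC asked which transcripts respond to the microRNA. No mitochondrially encoded gene passed the test: of 37 members, 0 had an adjusted p under 0.05 in limma and 0 had an unadjusted p under 0.05. Over all 13871 genes tested, 0% were called at the adjusted and 1.19% (165 genes) at the unadjusted threshold. This fit left out the replicate number, and the unadjusted count depends on that. With the number in the limma fit, 8 of 37 members and 1046 of 13871 genes had an unadjusted p under 0.05. At the adjusted threshold that fit still called 0 members. The fitted differences of the members were mostly small and positive, with 33 above and 4 below 0 and a median of 0.21 in log2(RPKM + 1), compared with -0.02 over all genes tested. By class the median was 0.11 for the mRNAs, 0.08 for the rRNAs and 0.27 for the tRNAs. The count depends on miR-217 mimic replicate 2: without that library, with the other mimic library set against both controls, 10 members were above and 27 below 0. Against its same-numbered control alone, that other library was higher for 22 of 37 members. An exact permutation test of 2 against 2 libraries cannot give a two-sided p under 0.333.

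Most groups overlapped. MT-TF (phenylalanine tRNA), MT-RNR1 and MT-TS1 (a serine tRNA) had their lowest miR-217 mimic value above their highest mimic NC value, 3 of 37 members, where 9.72% of all genes showed this. MT-RNR1 was at 233 and 217.2 RPKM against 241 and 249, a difference of 0.12 ± 0.13 (SE) with an adjusted p of 1.00. MT-TS1 was at 1024 and 1033 RPKM against 1097 and 1132 (0.12 ± 0.15), and MT-TF at 133 and 117 against 140 and 148 (0.21 ± 0.14). The excess of the mimic libraries was thus at most 15.3% of the mean in these genes.

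MT-TW alone lay lower in both miR-217 mimic libraries, 1 of 37 members where 13.5% of all genes showed this. Its level was 736 and 1306 RPKM in the controls and 587 and 718 with miR-217 mimic, and the difference of -0.59 ± 0.32 had the smallest unadjusted p of all members, 0.124 in limma (adjusted p = 1.00). The libraries of the control group differed from each other by more than the nearest pair across groups. The largest positive differences belonged to MT-TQ (0.64 ± 0.55), MT-TH (0.59 ± 0.74) and MT-TR (0.55 ± 0.56), each about as large as its standard error.

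Within the replicate numbers, 22 members were higher with miR-217 mimic in both (25.4% of all genes), and MT-TW was lower in both (34.1% of all genes). The size of the difference depended on the number. In the libraries numbered 1 the members had a median difference of 0.05 and a range of -0.33 to 0.47, whereas in those numbered 2 the median was 0.34 and the range -0.86 to 0.92. The difference was larger (more positive) in number 2 for 35 of 37 members (94.6%), against 48.7% of all genes tested. All 4 libraries enter these values, and each number has a single library per group, so this contrast has no replicate of its own.

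The mRNAs that encode complex I differed among themselves in this. MT-ND4 was 1.05 times mimic NC with miR-217 mimic in number 1 and 1.41 times in number 2, and MT-ND5 was 1.09 and 1.37 times. MT-ND4L, which had the same level in both libraries numbered 1 (0.986 times), was 1.44 times in number 2. MT-ND3 was at 1.21 and 1.48 times and MT-ND6 at 1.05 and 1.32 times, while MT-ND2, at 0.961 and 1.19 times, and MT-ND1, at 0.961 and 1.07 times, lay closer to the controls. Of complex IV, MT-CO1 was at 0.990 and 1.08 times, MT-CO2 at 1.05 and 1.12 times and MT-CO3 at 1.03 and 1.04 times, and MT-CYB of complex III was at 1.03 and 1.11 times. Of complex V, MT-ATP8 was at 1.10 and 1.555 times, above every complex I gene in number 2, and MT-ATP6 at 0.984 and 1.10 times. None of these genes passed the test.

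**Figure D3:**
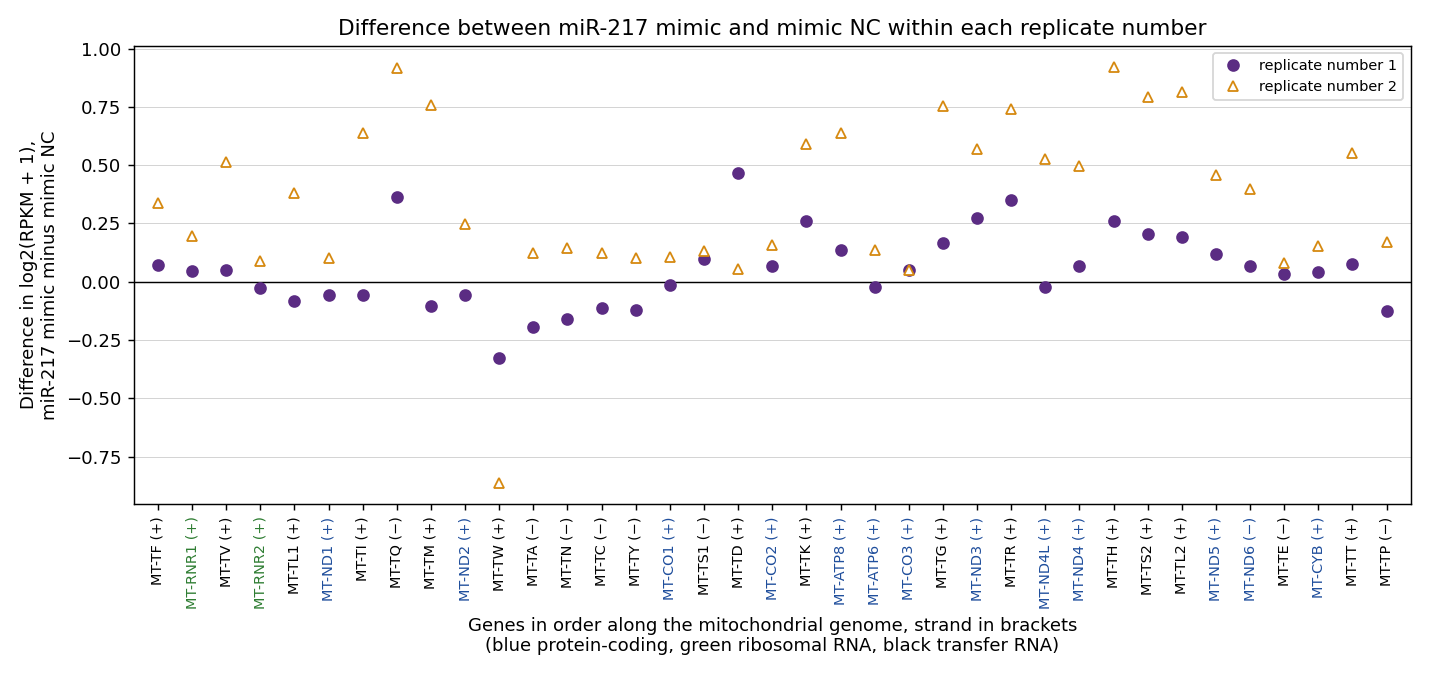
Difference in log2(RPKM + 1) between miR-217 mimic and mimic NC for each member in genome order, within the libraries numbered 1 (purple circles) and within those numbered 2 (orange triangles), with each point a difference between single libraries. The triangles lie above the circles for 35 of 37 members, and MT-TW alone lies below 0 in both.

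The libraries numbered 2 were next compared with those numbered 1, within both groups and in the same fit, since values of several members split by number. That split had been seen in the same libraries, so the p-values below describe it and are no independent test of it. Levels of 13 members were higher in number 2 at an adjusted p under 0.05 in limma, and 0 were lower. They were the protein-coding genes MT-ND3, MT-ND5, MT-ND6 and MT-ATP8 and the tRNAs MT-TQ, MT-TK, MT-TG, MT-TR, MT-TH, MT-TS2, MT-TL2, MT-TE and MT-TT. This is 35.1% of the members, where 3.69% of all genes were called higher and 4.69% lower. At an unadjusted p under 0.05, 17 members were higher and 0 lower, compared with 13.8% and 19.6% of all genes. All 13 were higher in number 2 within each group, by 0.46 to 1.21 within mimic NC and by 0.79 to 1.87 within miR-217 mimic. The fitted difference is the mean of these within-group differences, so this agreement is largely built into the call. Neither rRNA passed the test, with differences of -0.03 ± 0.08 for MT-RNR1 and 0.01 ± 0.13 for MT-RNR2. The call depends on the filter on low values: with all 32955 genes in the fit, 0 members and 3 genes in all passed. It also fell to 6 members when the fit left out treatment, beside 463 genes called higher in all.

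The largest differences were in the tRNA trio before MT-ND5. MT-TH was at 762 and 1758 RPKM in mimic NC 1 and 2 and at 913 and 3331 in miR-217 mimic 1 and 2, a difference of 1.54 ± 0.19 (adjusted p = 0.0328, limma). MT-TL2 was at 467, 1086, 533 and 1910 RPKM (1.53 ± 0.18, adjusted p = 0.0307), and MT-TS2 at 877, 1997, 1010 and 3456 (1.48 ± 0.17, adjusted p = 0.0312). In each of them both libraries numbered 2 lay above both libraries numbered 1. The tRNAs to the left showed the same order: MT-TG was at 2223, 3846, 2495 and 6478 RPKM (1.08 ± 0.18) and MT-TR at 1454, 2809, 1855 and 4701 (1.15 ± 0.14). On the right, MT-TT was at 235, 441, 248 and 646 RPKM (1.14 ± 0.14).

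Of the complex I mRNAs, MT-ND6 differed most. It was at 1506 and 3166 RPKM in mimic NC 1 and 2 and at 1580 and 4170 in miR-217 mimic 1 and 2, a difference of 1.24 ± 0.13 (adjusted p = 0.0283, limma). MT-ND5, which abuts it on the opposite strand, was at 1601, 2907, 1738 and 3988 RPKM (1.03 ± 0.14, adjusted p = 0.0354). Their ratio stayed at 0.941, 1.09, 0.909 and 1.05, so that the counts of the pair moved together across the libraries. Whether the counting used strand is not given, so reads from the opposite strand may be included in either gene. This was not tested. MT-ND3 was at 860, 1506, 1040 and 2232 RPKM (0.95 ± 0.12), while MT-ND4 (0.46 ± 0.16), MT-ND4L (0.21 ± 0.18), MT-ND2 (0.31 ± 0.13) and MT-ND1 (-0.27 ± 0.12) did not pass. The ratio of MT-ND5 to MT-ND1, at opposite ends of the complex I genes on the plus strand, was 0.479 and 0.540 in the libraries numbered 1 and 1.11 and 1.41 in those numbered 2.

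No gene of complex III or IV was called. MT-CYB had a difference of 0.44 ± 0.09 (adjusted p = 0.0569, limma), MT-CO1 of 0.07 ± 0.12, MT-CO2 of -0.28 ± 0.11 and MT-CO3 of 0.21 ± 0.11. Of complex V, MT-ATP8 was at 422, 637, 463 and 991 RPKM (0.84 ± 0.15, adjusted p = 0.0484), whereas MT-ATP6, in an overlapping frame of the same mRNA, was at 2476, 2825, 2437 and 3103 RPKM (0.27 ± 0.12) and did not pass. This contrast is between counted intervals and not between separate mRNAs.

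Called genes were unevenly placed along the genome. The division at MT-CO3 used here was not among the planned groupings, which were class and strand, so the counts on each side describe the pattern and do not test it. Of the 11 plus-strand genes after MT-CO3, 8 were called higher in number 2, with a median difference of 1.08, and 10 had an unadjusted p under 0.05. The 17 plus-strand genes from MT-TF to MT-CO3 held 2 called genes, MT-TK and MT-ATP8, and had a median of 0.07. On the minus strand 3 of 9 were called, MT-TQ, MT-ND6 and MT-TE. MT-ND6 and MT-TE lie side by side within the called stretch, and the 4 highly expressed tRNAs from MT-TA to MT-TY had differences of -0.10 to -0.03. Over the 28 plus-strand genes, the order along the genome and the difference had a Pearson's r of 0.657 and a Spearman's rho of 0.70, given as a description, since these genes share libraries, depth and precursor.

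In reads, the 11 plus-strand genes after MT-CO3 took 26.6% (95% Wilson interval 26.6 to 26.7) of mitochondrial reads in mimic NC 1, 33.6% (33.5 to 33.6) in mimic NC 2, 28.1% (28.0 to 28.1) in miR-217 mimic 1 and 39.2% (39.1 to 39.2) in miR-217 mimic 2. The 17 before took 65.6%, 57.9%, 64.6% and 52.3% in the same order. The libraries numbered 2 thus had a larger part of their mitochondrial reads at the far end in both groups, and most of all in miR-217 mimic replicate 2. These shares use the same division and the same libraries, so they are no separate evidence.

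**Figure D4:**
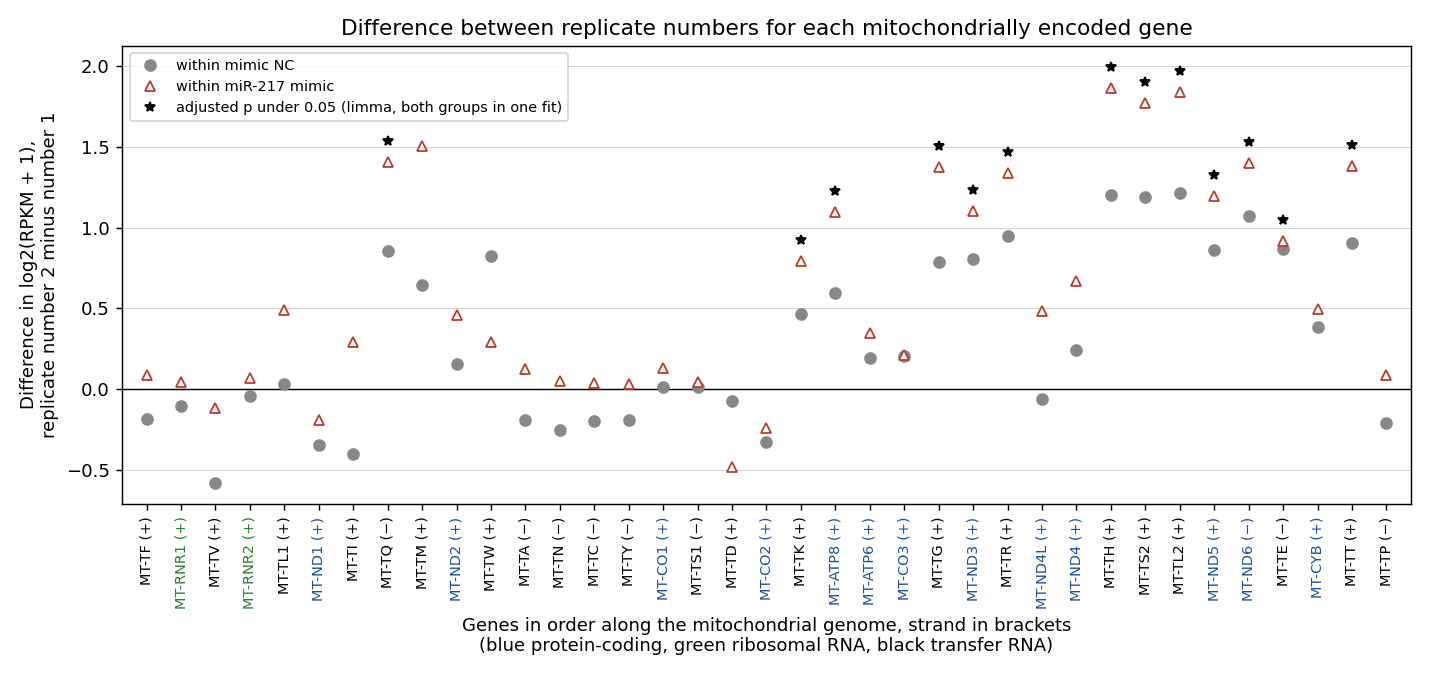
Difference in log2(RPKM + 1) between the libraries numbered 2 and 1 for each member in genome order, within mimic NC (grey circles) and within miR-217 mimic (red triangles), with each point a difference between single libraries and a star where limma over both groups gave an adjusted p under 0.05. The 13 stars gather from MT-TG to MT-TT, with MT-TQ, MT-TK and MT-ATP8 before them.

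Other genes of like length or level give a frame for these counts. Of 265 other genes under 100 bases, 18 (6.79%) were called higher in number 2 and 26 lower, with a median difference of -0.07, and of 453 other genes averaging 100 RPKM or more, 32 (7.06%) were called higher and 38 lower, with a median of -0.04. The libraries numbered 2 also had the lower read total within each group. What the number marks is not given, so culture, extraction, library and sequencing cannot be told apart. In bulk RNA, the number of mitochondria and the amount of RNA per mitochondrion cannot be told apart either. The part of depth and of the blood and stroma markers in these values was not tested.

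The nuclear genome supplies all proteins of mitochondrial transcription, RNA processing and DNA replication. Of 44 such genes listed, 43 passed the filter (PPARGC1B, a coactivator, did not). With miR-217 mimic, 0 of 43 passed at the adjusted and 0 at the unadjusted threshold of limma, and their median difference was 0.03. Of the 43, 9 had all miR-217 mimic values above mimic NC and 3 all below, beside 9.72% and 13.5% of all genes. Within both numbers, 18 (41.9%) were higher and 9 lower, beside 25.4% and 34.1% of all genes. These counts over the list were not tested. The largest positive differences were those of SUPV3L1, the helicase of the mitochondrial degradosome (0.25 ± 0.18), MGME1, a mitochondrial exonuclease (0.18 ± 0.12), and TFB2M, a transcription initiation factor (0.17 ± 0.13). MTERF2, of the transcription termination factor family (-0.29 ± 0.21), PPARGC1A, a coactivator of mitochondrial biogenesis (-0.29 ± 0.12), and GABPA, a transcription factor of nuclear respiratory genes (-0.25 ± 0.15), had the largest negative ones. POLRMT, the RNA polymerase, was at 8.89 to 9.48 RPKM in all 4 libraries, and TFAM, which packages and activates mitochondrial DNA, at 9.38 to 11.3.

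Between the numbers, 3 of the 43 (6.98%) were called higher in number 2 and 0 lower, where 3.69% of all genes were called higher and 4.69% lower. Of the other genes averaging 100 RPKM or more, a level that the 43 did not reach, 7.06% were called higher. LRPPRC, which binds and stabilizes mitochondrial mRNAs, was at 24.0 and 39.7 RPKM in mimic NC 1 and 2 and at 24.3 and 40.8 in miR-217 mimic 1 and 2 (0.71 ± 0.07, adjusted p = 0.0235, limma). Its partner SLIRP, at 71.7, 78.0, 71.0 and 75.7 RPKM, had a difference of 0.11 and did not pass. RNASEH1, which removes RNA from RNA-DNA hybrids, was at 36.4, 52.7, 37.8 and 51.3 RPKM (0.48 ± 0.07, adjusted p = 0.0385), and PNPT1, the exoribonuclease of the degradosome, at 12.02, 16.5, 12.7 and 18.5 (0.47 ± 0.07, adjusted p = 0.0399). At an unadjusted p under 0.05 these were joined by SUPV3L1, TWNK, SSBP1 and ESRRA, with differences of 0.27 to 0.40. MTERF2, PRORP, TBRG4, FASTKD5, PTCD1, NRF1 and GABPA had negative differences of -0.37 to -0.21 at that threshold. These 7 higher and 7 lower genes are 16.3% of the 43 each way, beside 13.8% and 19.6% of all genes.

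**Figure D5:**
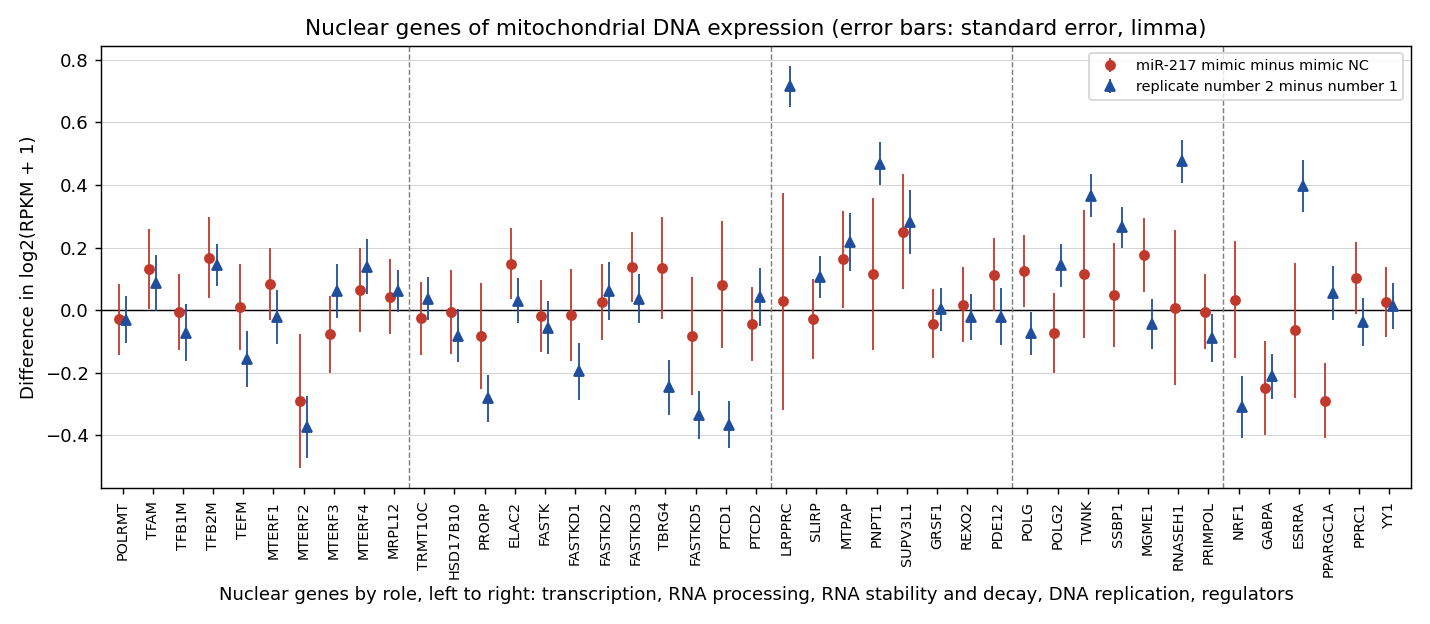
Difference in log2(RPKM + 1) ± SE (limma) for the 43 nuclear genes tested, grouped by role, for miR-217 mimic minus mimic NC (red circles) and for number 2 minus number 1 (blue triangles). The red circles lie between -0.29 and 0.25, and the highest blue triangle is LRPPRC at 0.71.

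Nuclear copies of mitochondrial genes could share reads with the members. The table lists 93 genes outside chromosome MT with names of such copies, and they held 0.109% to 0.117% of all reads. MTATP6P1, MTND2P28 and MTCO1P12, all on chromosome 1, took 94.1% to 95.6% of those reads. Over their aligned length the transcripts were 98.5%, 98.4% and 98.7% identical to MT-ATP6, MT-ND2 and MT-CO1. MTATP6P1 was at 741, 782, 673 and 702 RPKM in mimic NC 1 and 2 and miR-217 mimic 1 and 2, and MTND2P28 at 483, 386, 491 and 477. They reached 0.226 to 0.299 times MT-ATP6 and 0.195 to 0.288 times MT-ND2, so that the levels of these mitochondrial genes are uncertain by the way such reads were assigned, which is not given in the sources used here.

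The mature miR-217-5p, from RefSeq (GRCh38.p14), is shown because the search for matching letters rests on it, with its seed, bases 2 to 8, in capitals. The labels do not name the arm of the mimic:
hsa-miR-217-5p: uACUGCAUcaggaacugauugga

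ATGCAGT, the match to bases 2 to 8, was found in 0 of 37 members on either strand. TGCAGTA, the match to bases 2 to 7 followed by an A, was in 0 transcripts and in 1 opposite strand, that of MT-ATP6. The shorter TGCAGT, which is contained in both, occurred once in the MT-TA transcript and once in that of MT-CO1, and 2.2% and 44.2% of protein-coding transcripts hold it in their first 69 and 1542 bases, the lengths of these genes. MT-TA and MT-CO1 had differences of -0.03 ± 0.19 and 0.05 ± 0.17 with miR-217 mimic. Letters in a window are no evidence of a site.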

How the data were processed

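Total RNA of 4 MDA-MB-231 libraries (2 mimic NC, 2 miR-217 mimic) was sequenced by the study. The authors deposited a single table of RPKM with exon coordinates, strand and length for 32955 genes. The submitters' processing notes name Trimmomatic 0.36, featureCounts of Subread 1.5.1, edgeR 3.12.1 and hg38, without their roles. The aligner, the annotation release and the strand setting are not given in the sources used here. RPKM times length summed to 1000000 in each library, and 100% of nonzero values were whole multiples of 1 read (tolerance 0.01), which gave the read totals of 32635814 to 57933183.

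Groups and numbers were taken from the sample labels. Values were tested as log2(RPKM + 1) with limma 3.58.1 in R 4.3.3 (lmFit, eBayes with a trend), two-sided, for the 13871 genes that averaged 1 RPKM or more, with Benjamini-Hochberg adjustment over all of them. Fold changes of low genes are understated on this scale. All 37 members passed the filter. Number 2 against 1 was fitted with treatment in the model. Members and lists were chosen with earlier results of these data known. All members were eligible to be named, and of the nuclear list the 3 largest positive and negative differences and every gene with an unadjusted p under 0.05, and of the nuclear copies the 3 with most reads. The settings varied were the pseudocount (0.1), the filter (none, or an average of 5 RPKM), median centring, scaling to reads outside chromosome MT, centring on mitochondrial mRNAs, no moderation, a replicate block, leaving out each library and, chosen after seeing the data, limma voom on the recovered reads. On simulated counts for the mimic comparison, limma recovered 94.2% of 189 genes changed 2-fold among 13858 genes and also called 26 unchanged ones. Those counts were drawn with a fixed small spread and no difference between replicate numbers. The share recovered therefore does not carry over to these libraries. Transcripts were read from GENCODE 29, and identities and figures were made with Biopython 1.88 and matplotlib 3.10.9 in Python 3.11.15. With 2 libraries per group, p-values measure only the spread between these libraries, which may be technical. Other experiments of the study were not used.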

Additional observations from a re-analysis of the deposited data

How the results depend on the processing

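In the mimic comparison 0 members passed at an adjusted p under 0.05 in each of the 15 settings fitted, with a smallest adjusted p of 0.292 (limma voom, replicate block). At an unadjusted p under 0.05 there were 0 members, 1 without moderation and 0 to 11 with a library left out, the most without miR-217 mimic replicate 1. Among all genes the 165 became 877 without a filter, 48 at an average of 5 RPKM or more, 364 without moderation, 82 with voom and 93 to 866 with a library left out. The nuclear list had 0, which became 2 without moderation, 1 with voom and 0 to 2 with a library left out. The rRNA median was -0.0249 when libraries were centred on mitochondrial mRNAs, a setting in which 23 members lay above and 14 below 0. Median centring gave 35 and 2.

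With only 2 pairs, the replicate numbers share a number and nothing else that the labels state, although deviations of same-numbered libraries correlated at 0.68 over genes. With the replicate block 8 members, 3 nuclear genes and 1046 genes in all had an unadjusted p under 0.05, and with voom and the block 15, 5 and 1265, with 1 gene in all at an adjusted p under 0.05.

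Members called higher in number 2 numbered 13, 0 without a filter, 6 with number alone and 20 with voom and the block. Over all genes, 512, 1, 463 and 1394 were called higher in the same order. Median centring gave 15 members and 780 genes. The voom fit also called 2 members lower. Lower at an unadjusted p were 0 members, then 1 with number alone and 3 with voom, beside 2718, 2411 and 3059 of all genes. With a library left out, the difference within the group that kept both numbers had no test and medians of 0.21 to 0.49 for mRNAs and 0.25 to 0.39 for tRNAs. The edgeR fits that had been planned were not run. The deposited unit is RPKM, and limma voom on the recovered reads was fitted instead. Depth limits the tRNAs most, with as few as 214 reads on MT-TM in a library.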
